A study of Mus musculus with 8 samples.

Results

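Sperm RNA of mice on a caloric restriction diet was compared with that of mice on a control diet. The comparison was defined by the sample titles and used 4 of the 8 arrays of the series, 1 caloric restriction sperm array and 3 control diet sperm arrays. Each array measured total RNA of 1 sperm sample on an Affymetrix mouse gene array. All were C57/Bl6 males, and the females they met had been weaned to control diet. Sperm was released from the punctured caudal epididymis, the store of mature sperm, during 30 minutes in M2 medium, then washed with PBS and water. Preparations were kept if microscopy showed more than 99.5% purity, and a quantitative PCR screen for Actb and Myh11, read as genes of the epididymis, rejected others. Control males stayed on their diet until 9 to 12 weeks of age. The labels give no age, degree or length of restriction for the caloric restriction group, so these cannot be told apart from the diet. Nor do they say how many males went into a sample, or whether the control samples came from different males. A p-value here therefore reflects only how much these arrays varied, and that variation may be technical.

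Mature sperm have largely stopped transcribing, and most of their RNA was made earlier, in the spermatids of the testis. Those cells make the tail: an axoneme of microtubule doublets bent by dynein motors, wrapped in outer dense fibres, a mitochondrial sheath and a fibrous sheath. They also make the acrosome, the enzyme-filled vesicle over the head that opens at the egg, and replace histones with transition proteins and then protamines. RNA in a sperm preparation can also come from cells of the epididymis, so their markers are given beside the results.

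With caloric restriction, genes of the sperm tail, the acrosome and the sperm ion channels were higher. Of the 131 tail genes tested (136 on the array), 104 rose and 0 fell, where 11.7% of all genes tested rose and 3.92% fell. Their median difference was 1.26 on the log2 scale, on which 1 is a doubling. Of the protamine genes Prm2 rose by 0.71 and Prm1 did not pass the test. The transition protein genes Tnp1 and Tnp2 did not pass either. Genes that fell were fewer and changed less. They included the epididymal genes Lcn2 and Spink14, the fatty acid desaturase genes Scd1 and Scd2 and the cholesterol regulator Insig1. Lcn2, Spink14, Scd2 and Insig1 were all brighter on the control diet epididymis array of the series than in control sperm. Most falls were lost when the 2 low protein sperm arrays were added to the estimate of the spread. Of the falls named here only Lcn2 kept its call.

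Over all 13587 genes tested, limma called 1590 genes higher (11.7%) and 533 lower (3.92%), with 0.05 as the limit of the adjusted p. A single array has no spread of its own. In this fit the spread came from the 3 controls alone, and the lone diet array was taken to vary as they did. With the 2 low protein sperm arrays added only to the estimate of the spread, limma called 809 genes higher (5.95%) and 4 lower (0.0294%), so the number of falls depended on which arrays set the spread. No rank-based test could decide single genes: with 1 array against 3, the exact two-sided p of a rank test cannot go below 0.5. Counts that borrow no spread depended on the gap asked for: 630 genes (4.64%) lay at least 1 above the highest control and 10 (0.0736%) at least 1 below the lowest, but with no gap 3791 (27.9%) lay above all controls and 6157 (45.3%) below. The median difference over all genes tested was -0.109, so a list near that value did not stand apart from the rest.

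Among called genes the median difference was 1.01 for the higher set and -0.713 for the lower set. Of the higher genes 811 differed by at least 1 and 97 by at least 2, and of the lower genes 27 and 2. The higher genes had a median log2 level of 6.81 in the controls and 8.02 with caloric restriction, against 6.05 on the control diet epididymis array. The lower genes had 7.54, 6.80 and 8.10. The genes that rose were thus dimmer in epididymal tissue than in control sperm, and those that fell were brighter in the tissue. Genes tested had a median of 6.82 in control sperm and 6.91 in the tissue. Over these genes the control arrays correlated at 0.95 to 0.98 with each other and at 0.84 to 0.88 with the caloric restriction array, as a description of 4 arrays of 1 platform.

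**Figure D1:**
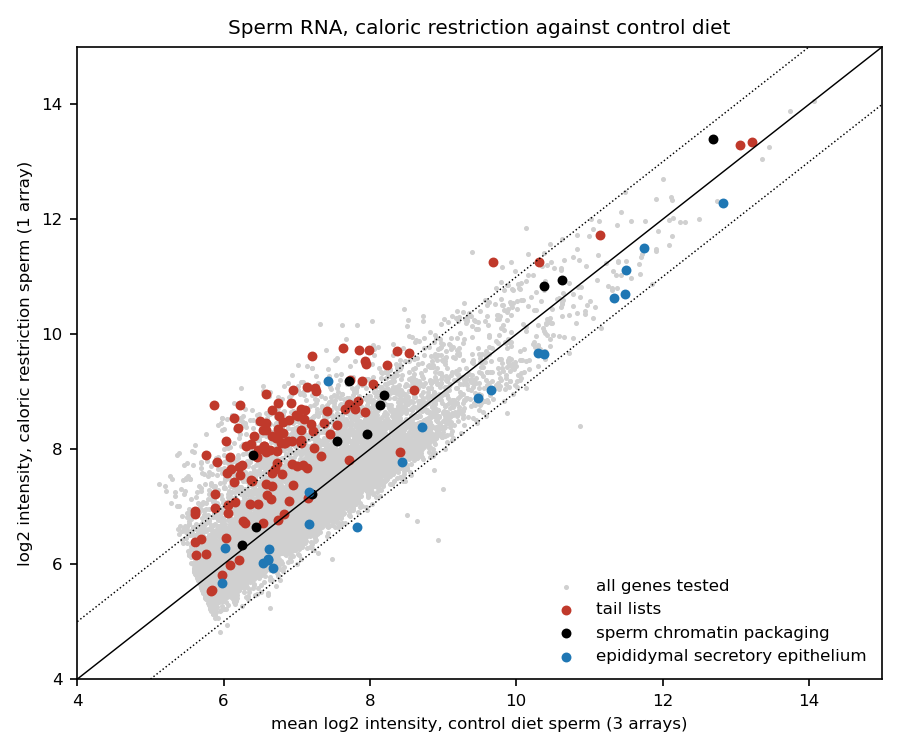
Log2 intensity of each tested gene on the caloric restriction array (vertical axis) against its mean on the 3 control arrays (horizontal axis). Points are genes; the solid line marks equality and the dotted lines a difference of 1. Most tail genes (red) lie above the line, with 104 of 131 called higher, the packaging genes (black) lie on the line or less than 1 above it apart from Brdt and Chd5, and most of the epididymal epithelium genes (blue) lie below.

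The largest rise was in Fsip2, a protein of the fibrous sheath. Its log2 level was 5.74, 5.63 and 6.26 in the controls and 8.78 with caloric restriction, a difference of 2.90 ± 0.24 (SE; 1 against 3 arrays; limma adjusted p = 4.74e-06). The 3 controls lay within 1 unit of each other and far below the caloric restriction array. Adgb, which encodes androglobin, a globin of the testis needed for a normal tail, read 7.31, 7.19 and 7.45 against 10.2 and rose by 2.86 ± 0.19. Enkur, a tail protein inside the microtubule doublets that also binds calcium channels, read 6.15, 6.16 and 6.36 against 8.77 and rose by 2.55. The other 9 of the 12 largest rises were Speer3, Lrriq1, Dcdc2c, AA467197, 1700028P14Rik, the acrosomal lysozyme-like gene Lyzl1, Dydc1, Glipr1l1 and the palmitoyltransferase gene Zdhhc11, with rises from 2.51 to 2.83. The 12 were chosen among genes outside the control range, so the lack of overlap is set by that rule. All 12 passed with 6 arrays too. Speer3 belongs to a family of near-identical copies, so its probe set may also read relatives.

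**Figure D2:**
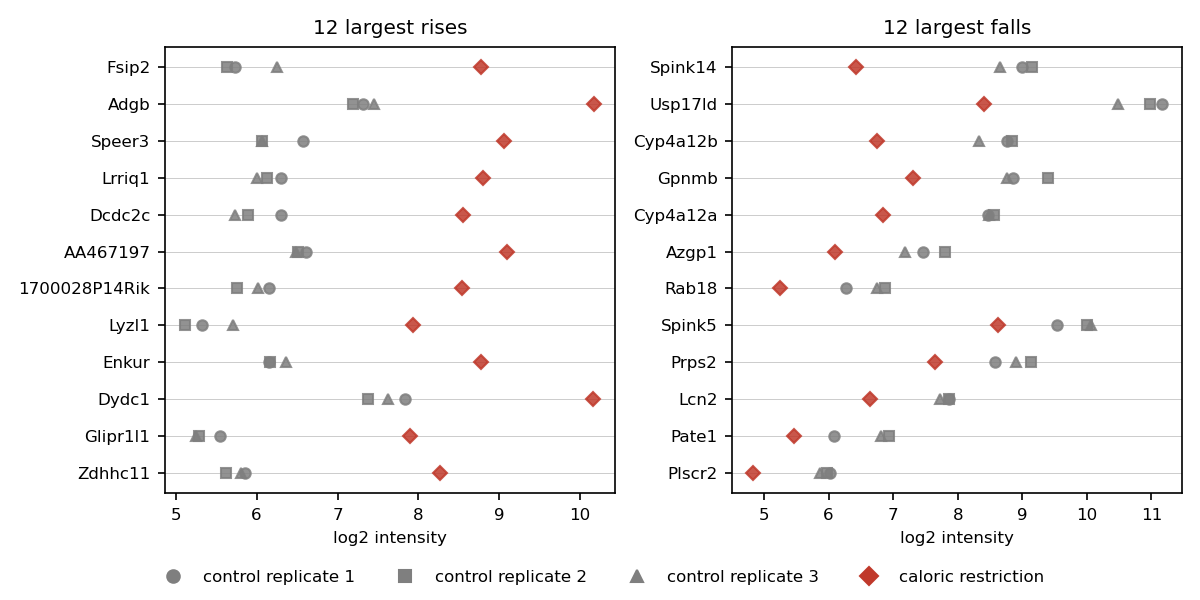
Log2 intensity on each of the 4 arrays for the 12 largest rises (left) and the 12 largest falls (right) among called genes. Grey symbols are the 3 control arrays and red diamonds the caloric restriction array. The genes were chosen for lying outside the control range. The diamond lies at 8.78 for Fsip2, above controls of 5.63 to 6.26, and at 6.42 for Spink14, below controls of 8.66 to 9.15.

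Promoters of tail genes are known to carry X-box sites, bound by RFX factors. One repeat unit of that site is the motif GTTGCC. The windows shown belong to genes named here with large rises: Adgb, Enkur, Spag6 and Tekt2 with this unit near the start, on one strand or the other, and Dnah6 and Izumo1 with TGACGTCA, the cAMP response element that CREM binds in spermatids. Each is 100 bases, 5′ to 3′ on the gene's strand, from RefSeq on GRCm38.p6, with motif letters in capitals. They are Adgb (chr10:10472400-10472499, minus strand), Enkur (chr2:21205366-21205465, minus strand, which also holds the reverse of the MYB motif CAGTTG), Spag6 (chr2:18698922-18699021, plus strand), Tekt2 (chr4:126325689-126325788, minus strand), Dnah6 (chr6:73221753-73221852, minus strand) and Izumo1 (chr7:45621669-45621768, plus strand).
Adgb: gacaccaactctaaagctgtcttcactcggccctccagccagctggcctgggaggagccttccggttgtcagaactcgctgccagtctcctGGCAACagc
Enkur: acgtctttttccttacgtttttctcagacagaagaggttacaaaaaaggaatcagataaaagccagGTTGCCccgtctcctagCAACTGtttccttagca
Spag6: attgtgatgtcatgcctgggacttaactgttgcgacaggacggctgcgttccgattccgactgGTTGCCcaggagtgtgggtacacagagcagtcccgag
Tekt2: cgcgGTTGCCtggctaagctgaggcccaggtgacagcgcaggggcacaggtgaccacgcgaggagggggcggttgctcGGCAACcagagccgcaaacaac
Dnah6: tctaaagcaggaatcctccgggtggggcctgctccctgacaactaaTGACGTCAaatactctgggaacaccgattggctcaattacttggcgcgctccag
Izumo1: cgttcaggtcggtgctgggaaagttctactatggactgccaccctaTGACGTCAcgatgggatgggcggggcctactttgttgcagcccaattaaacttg

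Both strands were searched for each motif, from 250 bases before to 50 after each start; GTTGCC and CAGTTG share 4 letters, so 1 stretch can count for both. Of 13726 promoters of tested genes (10822 of the 13587 genes, matched by symbol), 1835 held GTTGCC, or 13.4%. The share was 20.3% among promoters of genes that rose and 9.80% among those of genes that fell. Among promoters of the tail genes tested, whether or not they rose, it was 40.5%, and 44.1% for those that rose. TGACGTCA was in 2.80% of all these promoters, 3.81% of those that rose and 2.75% of those that fell. CAGTTG was in 1514 of all 13726 promoters, 226 of the 1705 of genes that rose and 60 of the 510 of genes that fell. These are matches of letters in a window, not measured sites.

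The dynein heavy chains are the motors that bend the tail. Of 15 on the array, 14 were tested and 12 rose, with a median difference of 1.54 against -0.109 over all genes. Their mean level was 6.69, 6.67 and 6.45 in the controls and 7.99 with caloric restriction. Dnah6, an inner arm chain, read 6.67, 6.68 and 6.37 against 8.97 and rose by 2.40 ± 0.20 (limma adjusted p = 5.22e-06). Dnah17, an outer arm chain of sperm, read 6.80 to 7.07 against 9.03 and rose by 2.08. Dnah8, its outer arm partner in sperm, read 7.83, 7.83 and 7.54 against 9.20 and rose by 1.47. The 2 that did not pass, Dnah9 and Dnah11, are the outer arm chains of motile cilia in airways and embryos. They differed by -0.10 and -0.30 and read 5.53 to 6.10 on the 4 arrays. Dnah7a, Dnah7b and Dnah7c, which also rose, are close copies whose probes may share signal.

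Among the light and intermediate chains, docking proteins and assembly factors of the dynein arms, 9 of 14 rose, with a median of 0.90. Ccdc39, part of the ruler that spaces the arms, read 6.27, 6.23 and 5.91 against 8.54 and rose by 2.40. Its partner Ccdc40 read 6.94, 6.38 and 6.63 against 7.13 and was not past the threshold (difference 0.48, adjusted p = 0.162). The radial spokes and central apparatus, which time the dyneins, had 18 of 20 tested genes higher, with a median of 1.49. Spag6, of the central apparatus, read 7.40, 7.02 and 7.19 against 9.63 and rose by 2.43. Hydin rose by 1.76, Rsph1 by 1.88 and Cfap69 by 1.99. Rsph14 and Spef1 did not pass. In the nexin-dynein regulatory complex, which links neighbouring doublets, 9 of 10 rose, with Fbxl13 highest at 2.12 and Iqcd the exception at 0.42.

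Tektins and other proteins inside the doublets had 15 of 18 tested genes higher and a median of 1.38. Tekt2 read 7.76, 7.70 and 7.42 against 9.77 and rose by 2.14. Tekt1, Tekt3 and Tekt4 rose by 1.61, 1.56 and 1.57. Tekt5 read 6.53, 6.06 and 6.30 against 6.72 and did not pass (adjusted p = 0.197). So 4 of the 5 tektin genes rose.

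All 10 fibrous sheath genes rose, with a median of 1.33, and 8 passed with 6 arrays. Akap4 and Akap3, which anchor protein kinase A in the sheath, rose by 1.14 and 1.50. Ropn1l and Ropn1, which bind these anchors, rose by 1.74 and 1.09, and Spa17 by 1.58. Cabyr, a calcium-binding sheath protein, rose by 1.30, Fsip1 by 1.35 and Fscb by 1.09. The smallest rise was that of Akap14, which read 6.32, 5.81 and 6.03 against 6.90 (0.84; adjusted p = 0.0163, and 0.0990 with 6 arrays). The fibrous sheath was the only list of 6 or more tested genes in which every member passed.

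Of the outer dense fibre and tail coupling genes 10 of 15 rose, with a median of 1.26. Sun5, which holds the tail to the nucleus, read 6.41, 6.12 and 6.06 against 8.37 and rose by 2.17. Odf2, the main fibre protein apart from Odf1, rose by 0.95. Others of these structures hardly differed. Odf1 read 13.2, 13.0 and 12.9 against 13.3 (difference 0.24), and Smcp, of the mitochondrial capsule, read 13.5, 13.3 and 12.9 against 13.3 (difference 0.12). Neither passed, and Smcp lay inside the control range. In the mitochondrial sheath list 5 of 6 tested genes rose, led by the glycerol kinase gene Gk2 at 1.95 and Spata19 at 1.86.

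Intraflagellar transport proteins carry cargo along growing axonemes, and the BBSome works with them. Both are made in ciliated cells generally, and their mean level was about the same in epididymal tissue (7.01) as in control sperm (6.99, 7.08 and 7.02). With caloric restriction it was 7.85. Of 24 tested genes, 16 rose, with a median of 0.90. Ift57 read 6.74, 6.75 and 6.76 against 8.80 and rose by 2.05 ± 0.19. Ift74 and Bbs5 rose by 1.53 and 1.49. Ift20 read 8.15, 8.55 and 8.53 against 7.96 and was not past the threshold (difference -0.45).

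CatSper is the calcium channel of the tail, opened by alkaline pH, and without it sperm do not hyperactivate. Of 8 subunit genes tested, 7 rose, and all 8 lay above all 3 controls, as did 27.9% of all genes tested. Catsper3, a pore subunit, read 6.10, 5.78 and 6.04 against 8.46 and rose by 2.48 ± 0.20 (limma adjusted p = 4.74e-06). Catsper4, another pore subunit, read 6.89, 6.92 and 6.66 against 9.10 and rose by 2.28. The remaining pore subunits Catsper1 and Catsper2 rose by 1.30 and 0.96. Efcab9, the calcium sensor of the channel, read 6.03, 6.08 and 6.01 against 8.52 and rose by 2.48, and its partner Catsperz rose by 1.52. Catsperd rose by 0.81, and Catspere2 differed by 0.44 without passing (adjusted p = 0.136). Catsperb and Slco6c1 were too dim for the test. Catsperb read 5.52, 5.12 and 4.89 against 6.17, and Slco6c1 4.40, 4.71 and 4.75 against 6.27. The pore genes thus rose by unequal amounts.

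Of 11 tested genes of other sperm ion transport and cAMP signalling, 8 rose. Kcnu1, the alkaline-gated potassium channel of sperm, read 6.74, 6.72 and 6.79 against 8.90 and rose by 2.15. Its subunit Lrrc52 rose by 1.68. Slc9c1, the sperm sodium-proton exchanger, rose by 1.81 and Adcy10, the soluble adenylyl cyclase activated by bicarbonate, by 1.37. Plcz1, the phospholipase that starts calcium waves in the egg, rose by 1.91. Slc26a3, an anion exchanger of epithelia as well as sperm, read 6.68, 7.55 and 7.55 against 6.43 and 8.24 in epididymal tissue. It was not past the threshold (difference -0.83, adjusted p = 0.0636).

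Of 23 acrosome genes on the array, 17 were tested and 15 rose; with no filter on dim genes 20 of the 23 rose. Acr, which encodes proacrosin, the main acrosomal protease, read 6.64, 6.67 and 6.58 against 8.43 and rose by 1.80 ± 0.19. Spaca1, a membrane protein that shapes the acrosome, read 5.65, 5.50 and 5.66 against 7.95 and rose by 2.35. Zp3r, which binds the egg coat, rose by 2.37 and Spaca7 by 2.50. The hyaluronidase genes Spam1 and Hyal5 were below the filter. Spam1 read 3.96, 3.67 and 4.30 against 6.22, and Hyal5 read 5.17, 4.72 and 4.84 against 6.29.

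The fusion list, proteins of sperm-egg binding and fusion with relatives not all known to be needed for it, was divided: 4 of 8 tested genes rose. Izumo1, the ligand of the egg receptor, read 6.43, 6.33 and 6.12 against 8.70 and rose by 2.40 ± 0.20 (limma adjusted p = 4.74e-06). Dcst1 and Dcst2 rose by 1.73 and 1.81, and Llcfc1 by 1.21. Spaca6, also required for fusion, read 6.59, 6.73 and 6.94 against 7.23 and did not pass (difference 0.48, adjusted p = 0.124). Tmem81 differed by 0.18, 4930451I11Rik by 0.03 and Izumo4 by 0.02, none past the threshold. Izumo2, Izumo3 and Cd46 were below the filter. Izumo3, an acrosomal relative of Izumo1, read 5.32, 5.07 and 5.13 against 7.09, and Izumo2 4.98, 5.25 and 5.04 against 6.43. Cd46 lay within the controls, at 5.30, 5.07 and 5.57 against 5.51.

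ADAM proteins on the sperm surface serve migration through the oviduct and binding to the egg, and chaperones fold them in the testis. Of 16 tested genes 10 rose. The chaperone gene Pdilt read 6.44, 6.06 and 6.16 against 8.51 and rose by 2.29, and Clgn rose by 1.49. Adam2 and Adam3 rose by 1.61 and 1.35. Tpst2, Prss55, Ly6k and Calr3, also in the list, differed by -0.16 to 0.21 and did not pass. Of the calyx and actin-related head genes, 5 of 8 tested rose, led by Cylc2 (1.94) and Capza3 (1.73).

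Chromatin packaging genes behaved differently from the tail genes by their counts and median: 5 of 12 rose, with a median of 0.53. The difference between the lists was not tested. Prm1, one of the 2 protamines, read 10.7, 10.6 and 9.88 against 10.8 and did not pass (difference 0.46, adjusted p = 0.254). Prm2 read 12.9, 12.8 and 12.5 against 13.4 and rose by 0.71 ± 0.21 (adjusted p = 0.0327, and 0.175 with 6 arrays). Tnp1, a transition protein, read 7.84, 7.71 and 7.10 against 8.15, and Tnp2 read 11.02, 10.69 and 10.15 against 10.95; neither passed. Control replicate 3 was the lowest in all 4 of these genes. Prm3 and Hils1, a spermatid linker histone, rose by 0.76 and 0.63, and neither passed with 6 arrays. The testis linker histones H1f6 and H1f7 and the histone variants H2bc1 and H2al2a differed by 0.02 to 0.31 without passing. The 2 chromatin regulators in the list rose more. Brdt, a bromodomain protein that acts in histone removal, rose by 1.50, and Chd5, a remodeller of spermatids, by 1.47, and both passed with 6 arrays. The count was 6, 2 and 4 of 12 without control replicate 1, 2 and 3, and the median 0.66, 0.60 and 0.32.

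**Figure D3:**
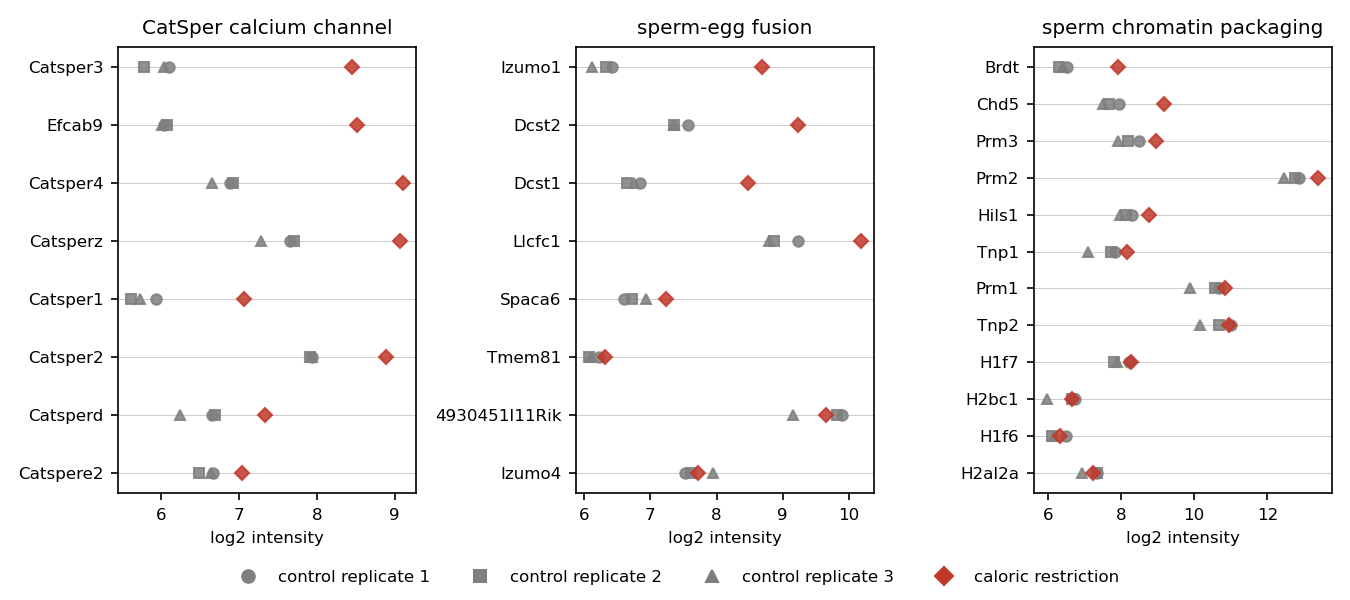
Log2 intensity on each array for the tested genes of the CatSper channel (left), sperm-egg fusion (middle) and sperm chromatin packaging (right), ordered by their difference. Grey symbols are the 3 controls and red diamonds caloric restriction; in CatSper all 8 diamonds lie to the right of the controls, while 4 of 8 fusion genes and 5 of 12 packaging genes passed the test.

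Sperm make part of their ATP by glycolysis with enzymes of their own. Of 15 glycolysis genes 11 rose, with a median of 0.82. Ldhc, the sperm lactate dehydrogenase, read 8.51, 8.54 and 8.49 against 10.3 and rose by 1.74 ± 0.19. Gapdhs and Pgk2, the sperm forms of their enzymes, rose by 1.11 and 0.82, and the lactate transporter gene Slc16a7 by 1.95. Hk1, which sperm share with other cells, read 11.7, 12.1 and 12.0 against 11.8 and did not pass. Among germ cell variants of proteins that other cells also need, 10 of 14 tested rose with a median of 1.45. These included the respiratory chain variants Cox8c (1.73), Cox7b2 (1.77) and Cox6b2 (1.49) and the ribosomal variants Rpl39l (1.67) and Rpl10l (1.46). Their general counterparts did not move as a list: of 35 mitochondrial respiratory chain genes 0 rose and 1 (Ndufa10) fell, and of 33 cytosolic ribosomal protein genes 0 passed, with differences from -0.54 to 0.19.

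Of 15 regulators of spermatid transcription and translation on the array, 13 were tested and 12 rose, with a median of 1.12. Mybl1 and Fhl5 were below the filter. With no filter on dim genes 12 of the 15 rose. Crem, the transcription factor of the cAMP response element in spermatids, read 7.30, 7.49 and 7.31 against 8.52 and rose by 1.15 ± 0.19. Taf7l, a testis subunit of the basal transcription machinery, read 5.56, 5.53 and 5.41 against 7.76 and rose by 2.26. Ybx2 and Ybx3, which bind stored messenger RNA, rose by 1.21 and 1.24. Rfx2, which binds the X-box, read 7.96, 7.62 and 7.66 against 8.33 and did not pass (difference 0.58, adjusted p = 0.0689). Of 9 testis-specific kinase genes 6 rose, from Tssk3 at 0.67 to Stk33 at 1.27.

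Genes of earlier germ cells were divided by list. Of 22 meiosis genes on the array, 13 were tested and 6 rose, among them Smc1b, a meiotic cohesin, at 1.88 and the synaptonemal complex gene Syce1 at 1.57. Sycp1, the defining synaptonemal complex gene, was below the filter and read 4.44, 4.55 and 4.26 against 6.30. Sycp2 read 4.68, 4.89 and 4.40 against 6.67, and Sycp3 read 4.46, 4.31 and 3.65 against 4.98. In the piRNA pathway, which silences transposons in germ cells, 6 of 13 tested genes rose. Tdrd6 read 5.60, 5.79 and 5.68 against 7.76 and rose by 2.07. Mael and the germ cell helicase gene Ddx4 rose by 2.02 and 1.87, while Piwil1, the PIWI protein of round spermatids, differed by 0.58 without passing. Of 11 tested spermatogonia genes 0 passed, and the median was -0.17. In these bulk preparations, a different share of cells carrying a transcript and a different amount of it per cell cannot be told apart.

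**Figure D4:**
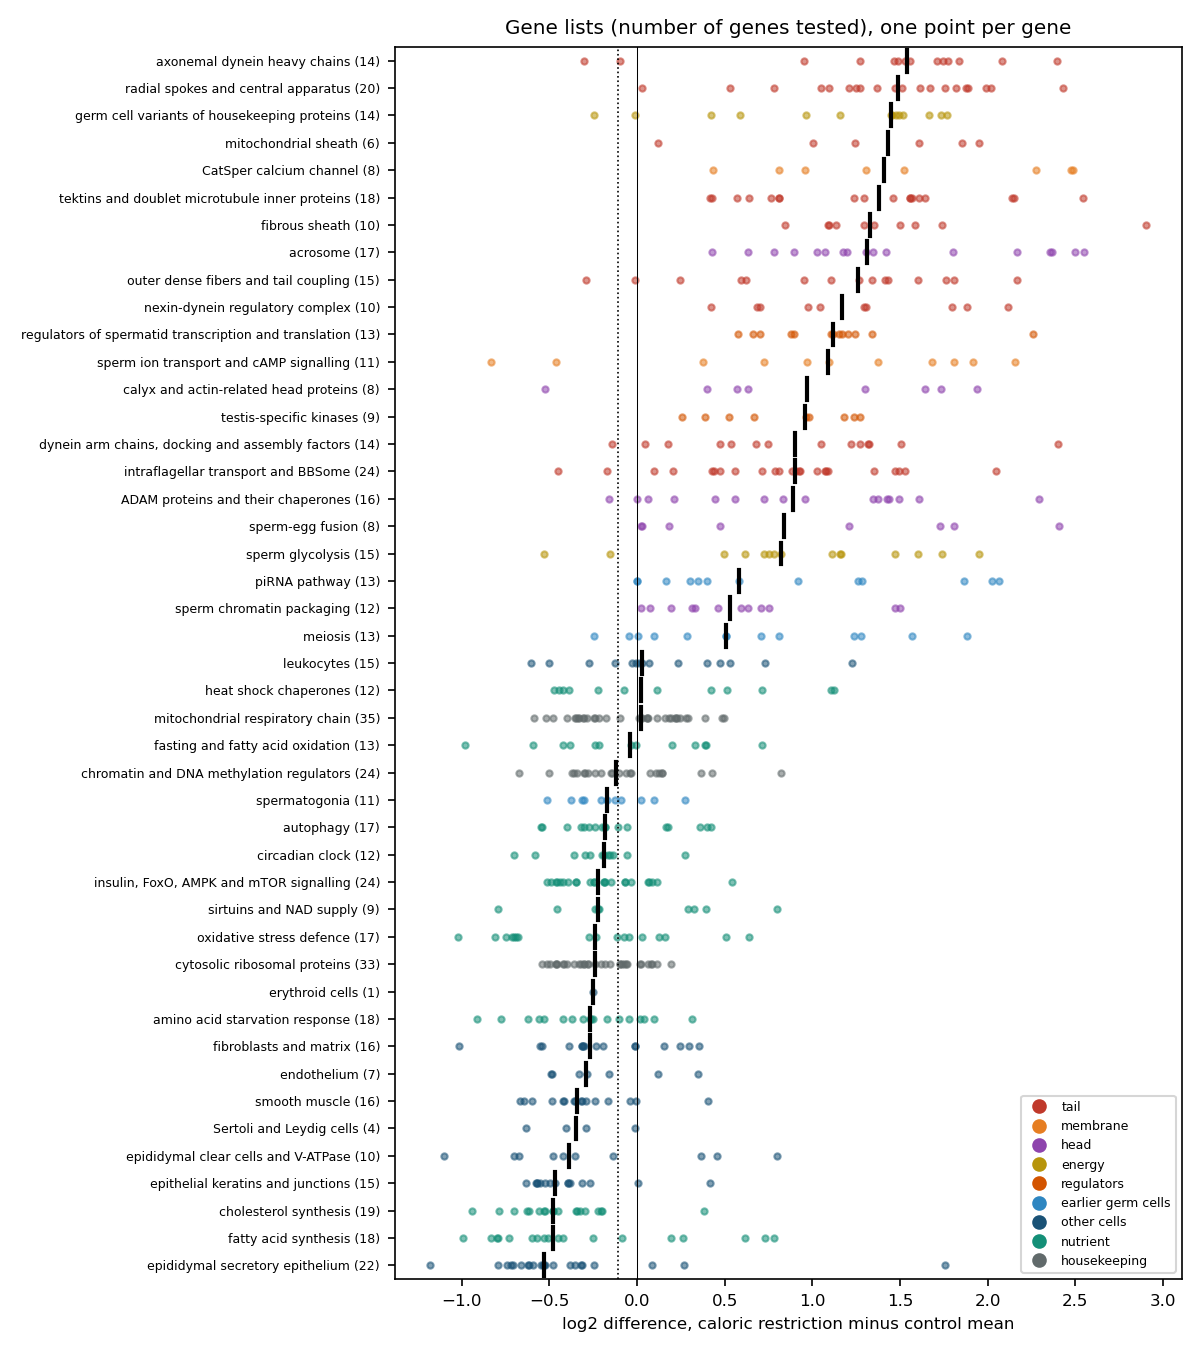
Log2 difference (caloric restriction minus control mean) for each tested gene of 45 lists, 1 point per gene, with the median of each list as a black bar and the number tested in brackets. The dotted line is the median over all genes (-0.109). Colours mark the kind of list; sperm lists have medians from 0.53 to 1.54, and lists of other cells and of nutrient response lie between -0.53 and 0.03.

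Across the 20 lists of sperm structure and function, 197 of 262 tested genes rose (288 on the array) and 0 fell, with a median of 1.16. With 6 arrays 149 of the 262 rose and 0 fell. Leaving out control replicate 1, 2 or 3 gave 212, 180 and 196 higher and 3, 0 and 2 lower. The filter used the mean of all 4 arrays, so some dim genes were tested only because they were high with caloric restriction. Of the tested genes, 163 had a control mean at or under the filter level (log2 5.67), and 96 of them were called higher. Genes named here with such a control mean include Lyzl1, Glipr1l1, Taf7l, Slc9c1, Cox7b2, Cylc2 and Spaca1, so their entry into the test depended on their caloric restriction value.

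Markers of the cells around sperm are given as their signal relative to epididymal tissue, and were lower in some lists and not in others. The summed linear signal of 40 genes of the epididymal secretory epithelium was 47.6%, 63.2% and 57.7% of the epididymis array in the controls and 39.6% with caloric restriction. For 16 epithelial keratin and junction genes it was 41.0%, 45.3% and 45.0% against 31.7%, and for 16 smooth muscle genes 15.4%, 16.1% and 13.9% against 12.2%. In all 3 lists the caloric restriction array lay below every control. Fibroblast and matrix genes (33.1%, 34.4% and 42.5% against 34.4%) and clear cell genes (69.3% to 83.6% against 80.9%) lay within the controls by this sum. Leukocyte genes (81.6%, 65.4% and 97.9% against 98.4%) lay just above the highest. Bright genes weigh most in such a sum. By the mean log2 level of tested genes, fibroblast and matrix genes (7.76, 7.75 and 7.97 against 7.63) lay below every control. So did clear cell genes (7.13, 7.40 and 7.33 against 7.07), while leukocyte genes (7.24, 6.94 and 7.43 against 7.35) lay within. These percentages come from array intensities with a background, so they are not shares of cells. The part of the epididymal RNA in the rises and falls was not tested.

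**Figure D5:**
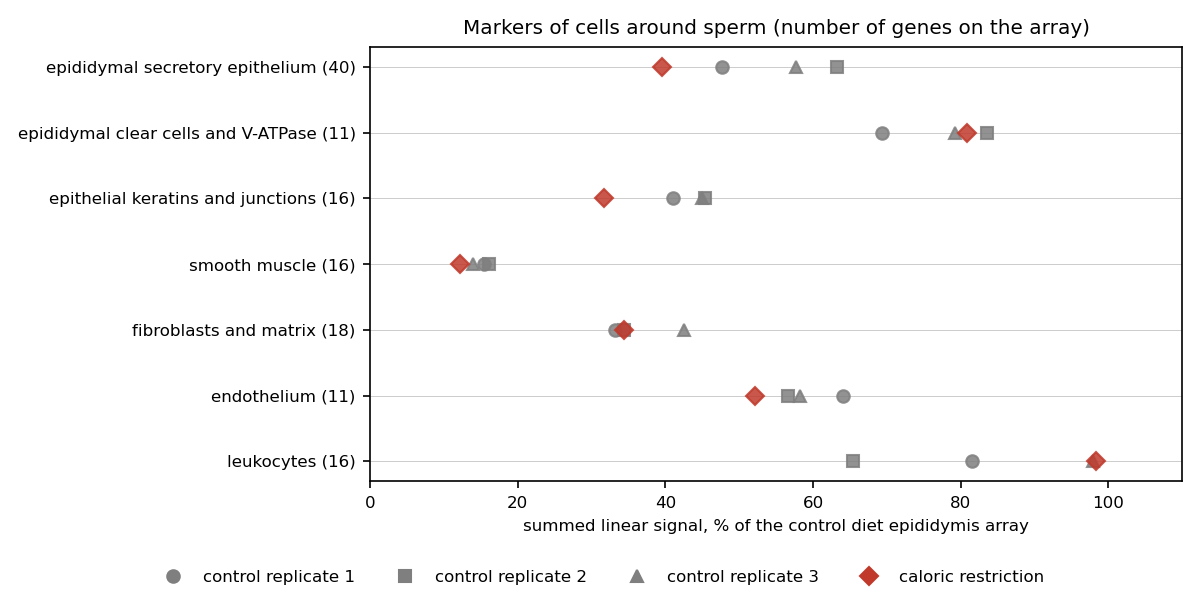
Summed linear signal of marker genes of other cells, as a percentage of the same sum on the control diet epididymis array, for 7 lists. Grey symbols are the 3 controls and red diamonds the caloric restriction array, which lies lowest for secretory epithelium (39.6%), keratins and junctions (31.7%), smooth muscle (12.2%) and endothelium (52.2%).

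Few single epithelial genes passed. Of 22 secretory epithelium genes tested (40 on the array), 3 fell and 1 rose, with a median of -0.53, and 18 lay below all 3 controls, as did 45.3% of all genes tested. Lcn2, an iron-binding lipocalin, read 7.87, 7.87 and 7.73 against 6.64 and fell by 1.18 ± 0.19 (limma adjusted p = 0.000565, and 0.0127 with 6 arrays). Gpx3, a secreted glutathione peroxidase, read 11.2, 11.6 and 11.6 against 10.7 and fell by 0.79 (adjusted p = 0.0205, and 0.438 with 6 arrays). Lcn12 fell by 0.62. Wfdc15a, a protease inhibitor-like gene, went the other way, reading 7.49, 7.46 and 7.33 against 9.18, above its tissue level of 6.38, and rose by 1.76. The number that fell was 11 without control replicate 1, 1 without control replicate 2 and 10 without control replicate 3. Gpx5, a glutathione peroxidase of the proximal epididymis, was just below the filter and read 5.81, 6.06 and 5.85 against 4.49 and 7.25 in tissue. Of the clear cell genes Atp6v0d2 and Atp6v1g3, subunits of the proton pump, fell by 1.10 and 0.70, while Car2, a carbonic anhydrase, rose by 0.80. The PCR screening genes did not pass. Actb read 11.4, 11.6 and 11.5 against 11.3, and Myh11 read 8.13, 7.98 and 7.94 against 7.85 and 11.8 in tissue.

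The largest falls were mostly genes brighter in the epididymis than in sperm. Spink14, a protease inhibitor gene, read 8.99, 9.15 and 8.66 against 6.42 and fell by 2.51 ± 0.22 (limma adjusted p = 5.22e-06, and 0.0506 with 6 arrays). Usp17ld, a deubiquitinase of a multicopy family, read 11.16, 10.98 and 10.48 against 8.41 and fell by 2.47 (0.00351 with 6 arrays). Its level in epididymal tissue was 11.06, within the range of the controls. Cyp4a12a and Cyp4a12b, near-identical fatty acid hydroxylase genes, fell by 1.66 and 1.90, and Gpnmb, a membrane glycoprotein, by 1.70. Azgp1, Rab18, Spink5, Prps2, Lcn2, Pate1 and Plscr2 completed the 12, with falls of 1.13 to 1.39. These 12 were also chosen outside the control range, and only Usp17ld and Lcn2 of them passed with 6 arrays. The remaining 2 of the 4 genes that fell with 6 arrays were Lce6a, which fell by 1.11, and the matrix proteoglycan gene Bgn, which fell by 1.01.

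With the spread taken from the 3 controls, lists tied to nutrient supply had more genes lower than higher. Of their 159 tested genes 18 fell and 9 rose, shares of 11.3% and 5.66% beside 3.92% and 11.7% over all genes. With 6 arrays 0 fell and 2 rose, and without control replicate 1, 2 or 3 the falls numbered 49, 7 and 21. In cholesterol synthesis 4 of 19 fell, with a median of -0.48. Of the 19, 17 lay below all controls, as did 45.3% of all genes tested. Insig1, which holds back the sterol-sensing machinery, read 8.86, 9.18 and 9.35 against 8.19 and fell by 0.94 ± 0.22 (limma adjusted p = 0.00826, and 0.279 with 6 arrays). The synthesis enzymes Lss, Nsdhl and Hsd17b7 fell by 0.79, 0.70 and 0.63. The count was 10 without control replicate 1 and 2 without control replicate 2. The list's signal was 40.4%, 49.9% and 52.3% of epididymal tissue in the controls and 34.8% with caloric restriction, below every control. The epithelial markers also lay below every control. So did the fatty acid synthesis, amino acid starvation, insulin to mTOR, circadian clock and cytosolic ribosomal protein lists. The remaining nutrient lists, the respiratory chain and the chromatin regulators did not.

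Fatty acid synthesis was mixed, with 4 of 18 lower and 3 higher. The desaturase genes Scd2, Fads1 and Scd1 fell by 0.99, 0.83 and 0.80, and Acly, which makes cytosolic acetyl-CoA, by 0.80. Scd2 read 9.59, 10.2 and 10.1 against 8.96 and 11.6 in tissue. Dgat2, which makes triglycerides, Elovl5 and Me1 rose by 0.78, 0.73 and 0.61. None of these 7 passed with 6 arrays, and without control replicate 2 the list had 2 lower and 1 higher. In the fasting and fatty acid oxidation list 1 of 13 tested genes rose, the lipid droplet gene Plin2 (0.71), and 1 fell. That was Ppard, a fatty acid receptor, which read 7.92, 8.24 and 7.92 against 7.05 and fell by 0.98 ± 0.20 (limma adjusted p = 0.00396, and 0.123 with 6 arrays). The fasting regulators Ppara and Cpt1a did not pass, at -0.04 and -0.42.

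In the insulin, FoxO, AMPK and mTOR list 0 of 24 genes passed, with differences from -0.51 (Tsc2) to 0.54 (Rptor). Autophagy also had 0 of 17. Among sirtuins and NAD supply, the mitochondrial Sirt3 rose by 0.80 and Nampt, which makes NAD precursors, fell by 0.79. Both calls were lost with 6 arrays (adjusted p = 0.0685 and 0.366) and without control replicate 2 (0.0668 and 0.0911). Sirt1, the family member most studied under restriction, differed by -0.24 without passing. The amino acid starvation list had 2 of 18 lower, the folate enzymes Shmt2 (fell by 0.91) and Mthfd2 (fell by 0.77), while Asns and Atf4 did not pass. In oxidative stress defence 5 of 17 fell, led by the mitochondrial peroxiredoxin gene Prdx3, which fell by 1.02, and Prdx4 rose by 0.64. The glutathione synthesis genes Gclc and Gclm fell by 0.75 and 0.70. Without control replicate 2, 1 of the 17 fell.

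Of 12 heat shock chaperone genes 3 rose: Hspa4l, a chaperone abundant in male germ cells, by 1.13, Hsp90aa1 by 1.11 and Dnajb1 by 0.71. The first 2 passed with 6 arrays. Of 12 circadian clock genes 1 fell, Cry2, by 0.70. Among 24 chromatin and DNA methylation regulators, Kdm3a, a histone demethylase needed for protamine expression in spermatids, rose by 0.82 (adjusted p = 0.00814, and 0.0619 with 6 arrays). Smarcd3, a subunit of a chromatin remodelling complex, read 10.2, 10.5 and 10.6 against 9.79 and fell by 0.67 ± 0.20 (limma adjusted p = 0.0386). Its call was lost with 6 arrays (0.618) and without control replicate 2 (0.126). The DNA methyltransferase genes Dnmt1, Dnmt3a and Dnmt3b differed by -0.28 to -0.37 and did not pass.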

How the data were processed

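The authors deposited 1 log2 intensity for every probe set on every array. Per the submitters' processing notes, RMA produced them. That method usually brings all arrays to one distribution, so the values cannot show whether cells held more or less RNA in all. Version and annotation: not given in the sources used here. On the 4 arrays values ran from 1.2 to 14.5, with array medians from 6.10 to 6.17. Array data give no read depth, and 4 arrays limit the precision.

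The platform table gave 1 gene for 21222 of 33660 probe sets, several genes for 1541 and none for 10897. Gene identifiers supplied current symbols for 21137, while 85 kept theirs. Each of 19411 genes was represented by its brightest probe set on average. A filter removed the dimmest 30% by their mean on the 4 arrays (log2 5.67 or less), leaving 13587 genes for the test. Limma 3.58.1 (lmFit and eBayes, two-sided) in R 4.3.3 compared the diets, with 2 residual degrees of freedom and Benjamini-Hochberg adjustment over all genes tested. "Rose" and "fell" mean an adjusted p under 0.05. The fit was also run on simulated data. There the caloric restriction array was drawn with the same spread as the controls, so the run could not test that assumption.

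The members, lists and tests were chosen with earlier results of these data known, so lists are described by counts and medians, with no set test. Genes were named by rule: the 12 largest rises and falls among called genes outside the control range, in each list the 3 members that changed most, all members of 4 lists (CatSper, fusion, fibrous sheath, packaging), Actb, Myh11, Smarcd3 and Ppard. Other genes named are list members chosen for their role, after their values were seen. Alternatives were other scalings, filters, probe-set rules, variance settings and thresholds, 6 sperm arrays, and leaving out each control. Promoter sequences are those of RefSeq on GRCm38.p6. No build is named for the array values.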

Additional observations from a re-analysis of the deposited data

How the results depend on the processing

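None of the 132 named genes past the threshold changed sign under any alternative tried, and 46 of them passed in every one. The 1590 higher calls were 809 when the spread came from 6 sperm arrays and 160 when limma's treat tested against a change of 1. Without 1 control array they ranged from 1252 to 1968. The 533 lower calls were 4 with 6 arrays, 907 after quantile normalization of the 4 arrays, 334 after cyclic loess, 1204 at an adjusted p under 0.10, 72 under 0.01 and 3 by treat, and 147 to 1727 without 1 control (147 without replicate 2, 1727 without replicate 1). The cause was not tested. Before adjustment, 2226 higher and 1986 lower genes had p under 0.05. Higher genes made up 74.9% of calls, but 99.5% with 6 arrays, 61.5% after quantile normalization, 85.6% after cyclic loess, which moved the median of all genes from -0.109 to -0.012, and 53.3% and 89.5% without control replicates 1 and 2. The 10 genes at least 1 below every control numbered 16 with quantile-normalized and 5 with loess-scaled values, and 10 to 35 without 1 control. List medians that changed sign were near 0: the fasting list (-0.04 against 0.06 after loess and 0.01 after quantile normalization), the respiratory chain (0.02 against -0.11), leukocytes (0.03 against -0.07 without replicate 2) and sirtuins (-0.22 against 0.03 with 50% of genes filtered out). No paired analysis was possible because the labels give the samples letters of their own and no number shared between the diets. The caloric restriction group has 1 array and no replicate, which no alternative can replace.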

Other observations

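Gene families were also counted by the start of their symbol, chosen after the values were seen, beside 11.7% higher and 3.92% lower over all genes tested. Of 28 tested Cfap genes (cilia and flagella associated proteins) 25 rose and 0 fell, with a median difference of 1.27. Of 25 Spata genes 15 rose, of 24 Tex genes 14, and of 111 Ccdc genes, named for coiled coils, 44. Of 101 tested RIKEN clones of a series prepared from adult testis, 66 rose and 0 fell, with a median of 0.95. Another RIKEN series rose less often: of its 54 tested clones 16 rose and 1 fell, with a median of 0.24. The Wdr genes were close to that series in their calls: of 59 tested 17 rose and 1 fell, with a median of 0.02. Others were nearer to the share over all genes: of 178 Tmem genes 19 rose and 5 fell, and of 39 Ankrd genes 6 rose and 1 fell. Of 49 tested olfactory receptor genes 0 passed.

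Some enzyme families had more lower than higher calls. Of 16 tested glutathione transferase genes 9 fell and 2 rose. Gsta4 fell by 1.09, Gstm1 by 0.94 and Gstt3 by 0.93, while Gstt4 rose by 1.85 and Gsto2 by 1.16. The Gstm genes are close copies, so their probe sets may share signal. All 3 tested alcohol dehydrogenase genes fell, Adh6b by 1.04, Adh5 by 1.00 and Adh1 by 0.85. Of 16 aldehyde dehydrogenase genes 5 fell, among them Aldh1a1 by 1.04. None of these falls was among the 4 that passed with 6 arrays. Of 58 Rab genes 7 fell and 2 rose.

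Control replicate 3 shared some values with the caloric restriction array rather than with the other controls, and in other genes it stood alone. It differed by at least 1 from the mean of the other controls in 14 genes, and was higher in 11. Fn1, which encodes fibronectin, read 7.53, 7.40 and 9.24 in the controls and 9.74 with caloric restriction, and rose by 1.69 in the fit although it was 0.50 above replicate 3. Prg4, a lubricant proteoglycan, read 5.85, 5.54 and 7.40 against 8.10. The macrophage genes Lyz2 (8.68, 8.03 and 9.74 against 10.0) and Alox15 (7.44, 7.15 and 8.57 against 8.69) had the same order and did not pass. The leukocyte list, which holds Lyz2, had a median difference of 0.03. Replicate 3 was high and the caloric restriction array was not in Nudt10 (5.76, 6.33 and 7.16 against 5.64), Slc15a2 (5.90, 5.24 and 6.78 against 5.21) and Tbrg3 (6.10, 5.89 and 7.16 against 6.10).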
